A study of Saccharomyces x bayanus with 4 samples.

Results

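The 100 genes described here were the most variable from array to array among the genes of intermediate expression in *Saccharomyces bayanus* strain NRRL Y-11845, out of 4603 eligible genes and 5482 genes on the array. The samples were 4 replicate total RNA preparations of this 1 strain, grown to mid-log phase in rich medium with no further treatment, and each was hybridized on its own 2-colour Agilent array. RNA carried the Cy3 dye and genomic DNA of the same strain carried Cy5 on every array. All samples belonged to 1 group, so no groups were compared. The labels number the RNA preparations and do not say whether each came from a culture of its own, although the methods of the study call such samples biological replicates. Each preparation was read on 1 array, so differences between preparations and differences between arrays cannot be told apart. The 2 probes of a gene and the place of a spot show only whether a departure was confined to 1 spot or 1 area of an array. 1 strain, 1 medium and 1 growth phase limit what these arrays can stand for.

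The value of a gene, V, was the log2 of background-subtracted Cy3 over background-subtracted Cy5, averaged over the gene's 2 probes and expressed relative to the median gene of the array. It measures RNA abundance against gene copies, so a difference of 1 between arrays is a 2-fold difference in relative RNA level. Genes were eligible when their mean V lay between -3 and 3, when each array called both of their probes well above background in Cy3 and in Cy5, and when they shared no 20-nucleotide stretch with another gene. Genes of 3 assembly blocks were left out. The members were then chosen for the largest standard deviation (SD) of V over the 4 arrays. All 100 passed the background filter by construction. Because the spread of V chose the members, their SDs, orders and departures are descriptions with no test.

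In budding yeasts, transcript levels follow the state of the culture. Genes for ribosome production and other growth functions fall, and genes for stress protection and the use of alternative nutrients rise, when growth slows or the medium runs down. The expression of such condition-dependent genes can therefore differ between flasks of the same strain grown in parallel. The array annotation described every gene as unknown and gave only identifiers of the form block and gene number, so the members could not be placed in these classes here.

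The arrays resembled one another. Pearson's r between pairs of arrays over all genes was 0.985 to 0.993, no gene spot was saturated, and the median background-subtracted signal of the gene spots was 2482 to 3176 in Cy3 and 13643 to 15505 in Cy5. Replicate 1 had 104 spots of eligible genes that the scanner software had set aside as outliers, against 22, 24 and 30 on replicates 2 to 4. These spots were kept in the rule. 17 of the 100 members had at least 1 such spot on some array, against 3.87% of the eligible genes.

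The SD of V over the 4 arrays was 0.38 to 2.44 among the members, with a median of 0.46. Across all eligible genes the median SD was 0.10. V differed by at least 1 log2 unit between the highest and the lowest array in 71 members, and these were the only such genes, 1.54% of the eligible. The rule fixed this, since a range that wide over 4 values forces an SD above the lowest member SD. The limit cut through a continuous distribution. The last gene inside, sbay_c556-g12.1, had V of -1.25, -0.78, -0.99 and -1.67 on replicates 1 to 4 and an SD of 0.3815. The first gene outside, sbay_c665-g35.1, had V of -0.80, -0.45, -0.79 and -1.37 and an SD of 0.3807. Both were highest on replicate 2 and lowest on replicate 4.

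**Figure D1:**
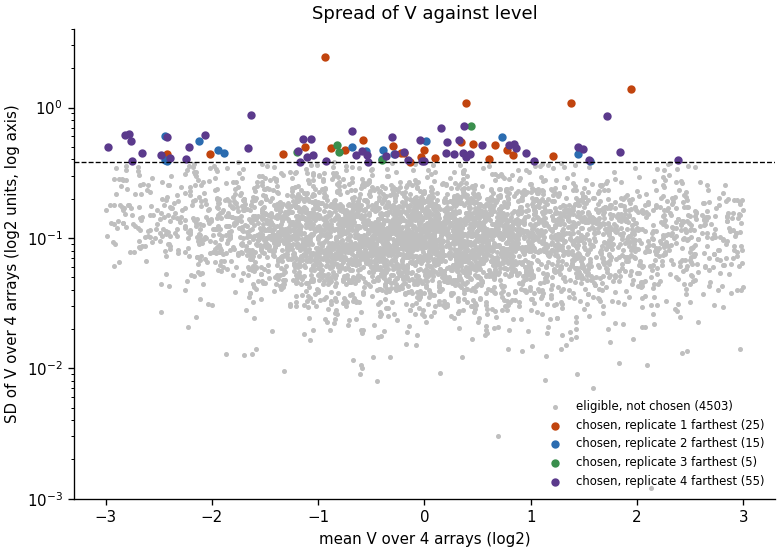
SD of V over the 4 arrays (log axis) against mean V for each eligible gene, with the 100 chosen genes coloured by the array farthest from the mean of the other 3 and a dashed line at the lowest chosen SD. The chosen genes lie above 0.38 across the range of levels, and 1 gene with replicate 1 farthest reaches 2.44.

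The members spanned the permitted range of levels, with mean V from -2.97 to 2.39 and a median of -0.30. They were most frequent at its lower end. Between -3 and -2, 18 of 229 eligible genes were members (7.86%), against 31 of 1327 between -1 and 0 (2.34%) and 1 of 332 between 2 and 3 (0.301%). The median SD of the members was 0.47, 0.46, 0.45, 0.52 and 0.46 in the bins of 1 log2 unit from -3 to 2. It was 0.40 in the single member between 2 and 3. The choice put a floor of 0.38 under these SDs, so they do not show how spread changes with level. Among non-members the median SD was 0.13 between -3 and -2, 0.097 between -1 and 0 and 0.099 between 2 and 3.

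For each member, the array farthest from the mean of the other 3 was found, and its distance from that mean is called the departure. The members fell into a few patterns. Replicate 4 was farthest and below in 51 members, and the share of eligible genes with this pattern was 17.8%. Replicate 1 was farthest in 25 members, below in 21 and above in 4, against 6.39% and 7.36% of the eligible genes. Replicate 2 was farthest and above in 15, a share near the 14.8% of the eligible genes, and in no member was it farthest and below. Replicate 3 was farthest and above in 4 (6.84% of the eligible genes) and below in 1 (11.7%). Replicate 4 was farthest and above in 4, against 16.2% of the eligible genes.

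**Figure D2:**
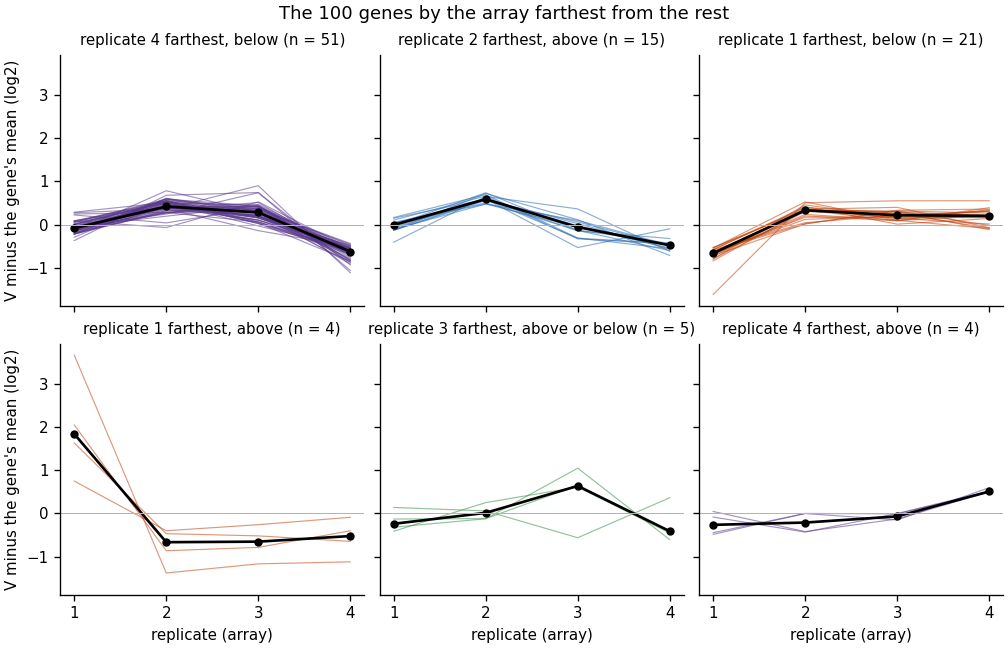
V minus the gene's own mean over the 4 arrays, in log2 units, for each of the 100 genes (thin lines) and their median (black), by the array farthest from the rest. In the 51 genes with replicate 4 farthest and below, the lines are mostly highest on replicate 2 or 3 and fall on replicate 4.

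The largest pattern joined 51 members that were low on replicate 4. Their median V was -0.38 on replicate 1, 0.14 on replicate 2, -0.12 on replicate 3 and -0.90 on replicate 4. The departure of replicate 4 was between 0.58 and 1.48 log2 units, with a median of -0.83, a 1.78-fold lower relative level. Among these 51, replicate 2 was highest in 37 and replicate 3 in 14, and replicate 1 was the second lowest in 43. Shares among all eligible genes with the same pattern are not given here, so these counts only describe the members.

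The member farthest below on replicate 4 was sbay_c634-g32.1. Its V was 1.56, 2.08, 2.62 and 0.60 on replicates 1 to 4, with a mean of 1.72 and an SD of 0.86. Replicate 4 lay 1.48 log2 units, or 2.79-fold, below the mean of the others. Replicate 3 was high and replicate 4 low, with replicates 1 and 2 between them. Both probes gave the same order, with 1.47, 1.94, 2.51 and 0.44 on the first and 1.63, 2.21, 2.74 and 0.78 on the second. The RNA signal of the first probe was 10076, 16486, 30018 and 3582, and its genomic DNA signal was 17878, 19566, 22817 and 12797. The genomic DNA signal followed the same order as the RNA signal, over a narrower range. The part of this in the difference was not tested.

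The 15 members that were farthest above on replicate 2 were also mostly lowest on replicate 4, but differed from the larger pattern on replicate 3. Their median V was -0.52, 0.05, -1.005 and -0.96 on replicates 1 to 4, and the median departure of replicate 2 was 0.79, a 1.73-fold higher level. Replicate 4 was the lowest array in 14 of these 15. Replicate 3 was the second lowest in 8 of them, and in 6 of the 51. These counts too have no share of eligible genes with the same pattern beside them. The member farthest above was sbay_c676-g62.1, with V of -2.13, -1.38, -2.25 and -2.72 and an SD of 0.56. Replicate 2 stood 0.99 log2 units above the mean of the others, and replicate 4 was again lowest. Its first probe gave -1.99, -1.18, -2.12 and -2.58, and its second gave -2.29, -1.59, -2.37 and -2.85, so the probes moved together. In the first probe the RNA signal was 570, 1106, 608.5 and 368.5 while the genomic DNA signal stayed between 10691 and 11460.

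Read over all 100 members, replicate 4 was the lowest array in 70, where it was lowest in 31.2% of the eligible genes. Replicate 2 was the highest in 64, against 32% of the eligible genes. Only 16 of the possible orders of the arrays occurred among the members. From lowest to highest, the order 4, 1, 3, 2 was found in 37 members and 10.6% of the eligible genes, the order 4, 1, 2, 3 in 16 members and 3.997%, and the order 4, 3, 1, 2 in 14 members and 8.56%. V was higher on replicate 2 than on replicate 4 in 84 members, with a median difference of 0.93. In the 4503 eligible genes that were not chosen it was higher in 46.9%. Their median difference was -0.019, and the difference lay between -0.39 and 0.44 for the middle 90% of them.

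The arrays also differed with the level of a gene. Among non-members the median deviation of replicate 4 from the gene's mean went from -0.070 in genes with mean V between -3 and -2 to 0.069 between 2 and 3. The members in the lowest of these bins deviated by a median of -0.60 on replicate 4, those between 1 and 2 by -0.49, and the single member between 2 and 3 by 0.49. Non-members have small deviations by the rule, so these values are set side by side as a description. With loess within arrays, which removes trends of the ratio with intensity, 17 of the 100 stayed among the 100 most variable genes and the median SD of the members was 0.14. Loess also changed the levels themselves. Across the eligible genes, mean V after loess had a Pearson's r of 0.62 with mean V as used here, and its SD fell from 1.25 to 0.95. The setting therefore does not single out a trend with level. The part of level in the members' spread was not tested.

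Few members were farthest on replicate 3 or farthest above on replicate 4. Of the 4 above on replicate 3, the farthest was sbay_c650-g33.1, with V of 0.12, 0.31, 1.48 and -0.17. Its probes disagreed. The first gave -0.066, 0.10, 2.99 and -0.26, and the second gave 0.28, 0.51, -0.015 and -0.074. Only the first was high on replicate 3, where its spot, in column 1 at the edge of the array, had been set aside as an outlier. The other 3 genes of this pattern had both probes above, with gene departures of 0.82 to 0.86.

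The single member farthest below on replicate 3, sbay_c670-g11.1, had V of -0.26, -0.34, -0.96 and -0.031 and an SD of 0.40. Its probes departed by -0.65 and -0.83, so both were low on that array, whereas replicate 4 was the highest of the 4. The member farthest above on replicate 4 was sbay_c677-g25.1, with V of -0.011, 0.43, 0.28 and 1.03. Its first probe gave 1.23, 1.23, 1.103 and 1.75, and its second gave -1.27, -0.38, -0.53 and 0.32. Both probes were highest on replicate 4, but at levels more than 1 log2 unit apart, and only the second was low on replicate 1.

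The members with replicate 1 farthest behaved differently. These 25 included the 3 genes of largest SD, sbay_c676-g5.1, sbay_c665-g43.1 and sbay_c630-g46.1, and in each of them 1 probe on 1 array set the spread. V of sbay_c676-g5.1 was 2.73, -2.31, -2.10 and -2.05 on replicates 1 to 4, with an SD of 2.44. Its second probe read 7.77, -2.03, -1.94 and -1.83, whereas its first read -2.33, -2.61, -2.25 and -2.26. The RNA signal of the second probe was 493412 on replicate 1 against 630, 788 and 686 on the other arrays, and its genomic DNA signal was 12648 against 13345, 14892 and 13534. The other probe of the same gene was not high on replicate 1.

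sbay_c665-g43.1 had V of 3.99, 1.08, 1.16 and 1.54, and an SD of 1.38. Here too the second probe alone was high on replicate 1, at 6.86 against 1.39, 1.40 and 1.71, while the first read 1.11, 0.76, 0.93 and 1.39. In sbay_c630-g46.1, V was 2.02, -0.077, -0.13 and -0.26, with an SD of 1.09, and the second probe read 4.45 on replicate 1 against 0.10, 0.055 and -0.10. Its RNA signal there was 768685 against 1853 to 2549 on the other arrays, and its genomic DNA signal was 197590 against 11002 to 12077. Both channels of that spot were high, and the first probe read -0.42, -0.27, -0.30 and -0.40. All 3 high spots had been set aside as outliers by the scanner software.

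**Figure D3:**
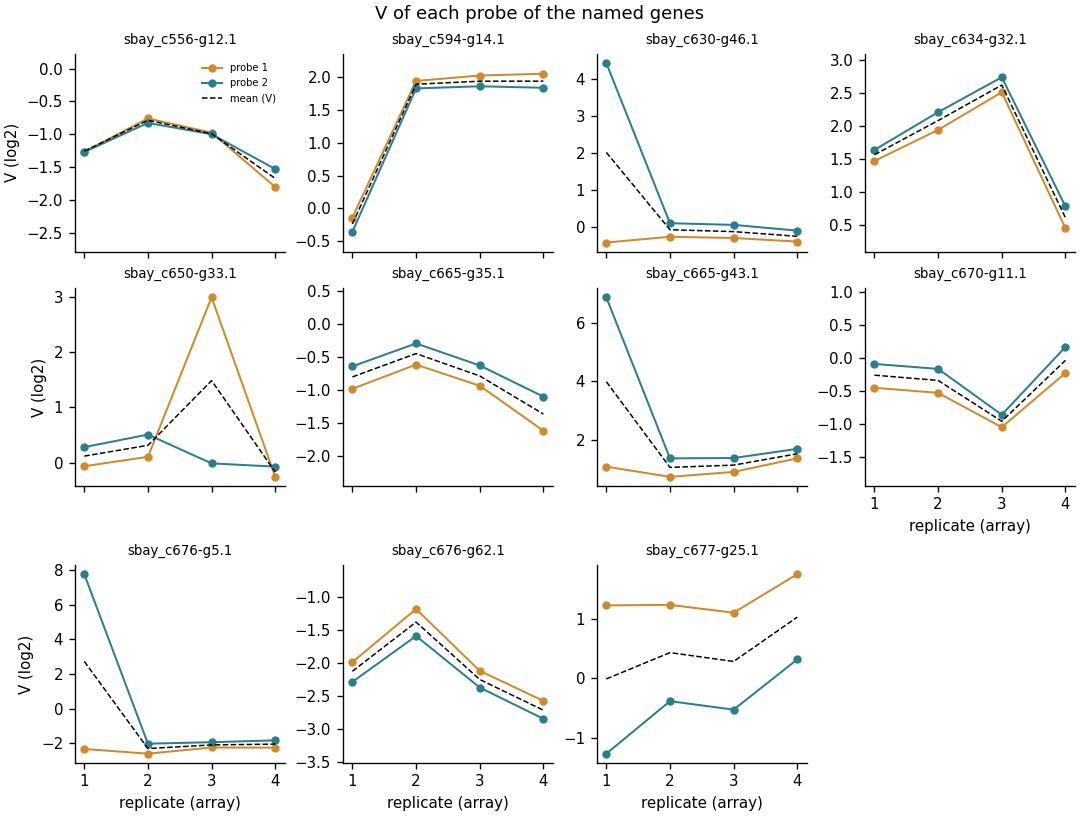
V of each probe (orange and teal) and their mean (dashed), in log2 units, on replicates 1 to 4 for the 11 genes named in the text. Each panel has its own vertical scale. The probes run in parallel in sbay_c634-g32.1 and sbay_c676-g62.1 and part on 1 array in sbay_c676-g5.1, sbay_c665-g43.1, sbay_c630-g46.1 and sbay_c650-g33.1.

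The 4 members above on replicate 1 had their farther-departing spots in rows 173 to 177 and columns 3 to 4, and the 21 below had them in rows 171 to 191 and columns 9 to 16. The array has 192 rows and 82 columns. An area of rows 171 to 191 and columns 3 to 16, drawn after these places were seen, held 1.84% of the spots of eligible genes. On replicate 1, 42.0% of the spots there departed by over 0.5 log2 units from the other arrays, against 0.443% of the spots elsewhere. On replicates 2 to 4 the shares were 21.3%, 13.0% and 17.2% there, against 3.21%, 0.841% and 3.70% elsewhere. Replicate 1 is among the arrays that these were set against. All shares in the area include the member spots around which it was drawn. The area also held 41 of the 104 outlier spots of eligible genes on replicate 1, and none on replicates 2 to 4.

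**Figure D4:**
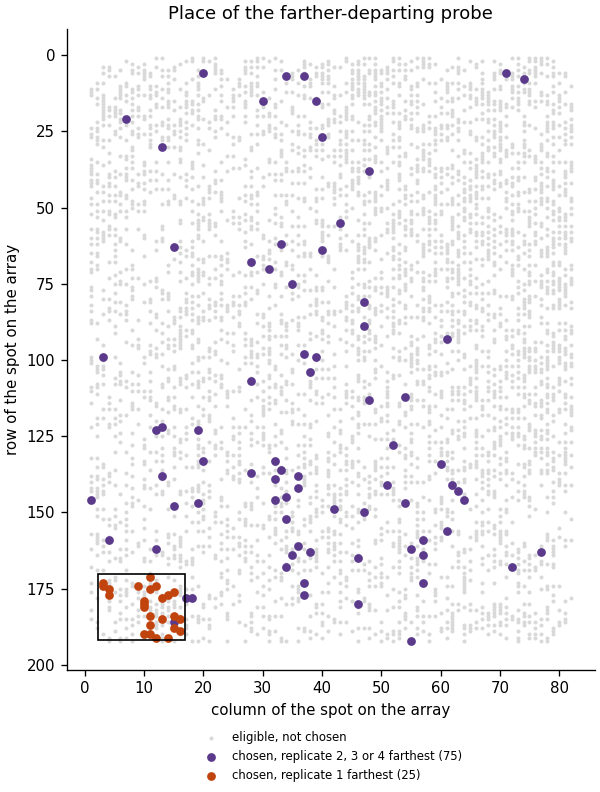
Row and column on the array of the farther-departing probe of each chosen gene and, in grey, of each other eligible gene. The 25 genes with replicate 1 farthest (red) all lie in the outlined area of rows 171 to 191 and columns 3 to 16. The other 75 (purple) lie over a wide range of rows and columns, but not evenly. Of the 192 rows, the median row was 141 in the 51 genes low on replicate 4 and 133 in the 15 high on replicate 2.

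In the 21 members below on replicate 1, the farther-departing spot was weak in both channels. Its Cy3 signal was lower than on the other arrays by a median departure of -3.23 log2 units (-4.53 to -2.21), and its Cy5 signal was lower by one of -1.44 (-2.52 to -0.72). The genomic DNA was of the same strain on every array. All 21 spots were below the other arrays in both channels. In the 4 members above, Cy3 departed by a median of 8.38 and Cy5 by a median of 2.22, with 1 of the 4 slightly below in Cy5.

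Over the 25 members, the farther-departing probe departed by a median of 1.83 log2 units in either direction, and the gene's other probe, lying elsewhere on the array in 23 of them, by a median of 0.078. The other probe departed by under 0.3 in 23. Both spots lay in the area in 2 members. One of these was the member farthest below on replicate 1, sbay_c594-g14.1, with V of -0.24, 1.89, 1.93 and 1.93 and an SD of 1.08. Its probes read -0.14 and -0.35 on replicate 1 and 1.82 to 2.05 on the other arrays, so both were low. The genomic DNA signal of these spots was 825 and 3176 on replicate 1 and 6931 to 8992 on the others, low on the same array. In the 23 genes whose other probe lay outside the area, that probe departed by at most 0.35, and there in the direction opposite to the gene. A difference of the size that chose these genes was thus not read by their second probe. The cause of the departures in the area was not tested.

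The 2 probes of a gene read the same RNA at separate spots. Their sequences overlapped by 10 or more nucleotides in 29% of the members and 20.1% of the eligible genes, so the readings are not wholly separate there. Over all members, both departed in the same direction on the farthest array in 90, close to the 86.1% of the eligible genes. The 25 with replicate 1 farthest and the other 75 differed. The probes departed in the same direction in 16 of the 25 and in 74 of the 75. Across genes, Pearson's r between the departures of the first and second probe was 0.042 in the 25, 0.86 in the 75 and 0.62 in the non-members. These are descriptions across genes, which share the same 4 arrays and are not independent. The choice by V also left the 75 with large departures in either direction, and the non-members with smaller ones. The r of the 75 is therefore not comparable with that of the non-members. In the 75, the farther-departing probe departed by a median of 0.90 and the other by 0.71. The single exception in direction among the 75 was sbay_c650-g33.1.

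**Figure D5:**
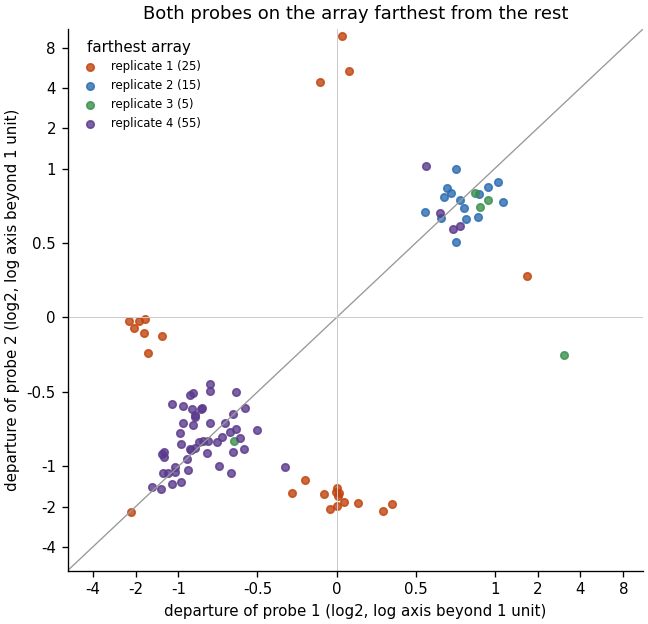
Departure of the second probe against that of the first on the array farthest from the rest, in log2 units (log axes beyond 1 unit), for the 100 genes by farthest array, with the line of equality. Genes with replicate 2 or 4 farthest follow the line, whereas those with replicate 1 farthest lie mostly along the 2 axes, with 1 probe near 0.

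In 56 members each probe alone had an SD of at least the lowest member SD. These were the only such genes, 1.22% of the eligible. Of these, 53 were lowest on replicate 4, against 31.2% of the eligible genes. In 40 replicate 2 was highest and in 14 replicate 3, against 32.0% and 18.3% of the eligible genes. Their median deviations from the gene mean were -0.073, 0.51, 0.26 and -0.61 on replicates 1 to 4. Only 1 of them had a spot in the area of replicate 1.

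The choice was also made by 1 probe and read on the other, which had no part in it. The 100 eligible genes of largest SD by the first probe had a median SD of 0.38 on the second, where the median of all eligible genes was 0.12. Replicate 4 was the lowest array on the second probe in 70 of them (29.8% of eligible genes), and replicate 2 the highest in 57 (31.3%). Of the 100 chosen by the second probe, the median SD on the first was 0.29, also against 0.12. Replicate 4 was lowest on the first in 61 (30.7%) and replicate 2 highest in 52 (29.5%). The lists overlapped in 42 genes, all of them members, which is 42% of each list. The replicate 1 area entered these lists too, since replicate 1 was farthest on the choosing probe in 25 genes of the first list and 39 of the second.

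The spread was larger in the RNA channel than in the genomic DNA channel. With each channel centred on its median gene, the median SD over arrays was 0.56 in Cy3 and 0.073 in Cy5 for the members, and 0.13 and 0.054 for the eligible genes. The SD was larger in Cy3 in all 100 members and in 91.5% of the eligible genes. For the 51 members low on replicate 4 the medians were 0.52 in Cy3 and 0.057 in Cy5. For the 21 low on replicate 1 they were 0.83 and 0.37, so both channels varied there, and the highest Cy5 SD of a member, 1.64, was also in a gene with replicate 1 farthest.

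Leaving out every gene with a spot in the replicate 1 area left 72 of the 100 members, 67 of which were lowest on replicate 4. When 100 genes were chosen anew from the 4439 eligible genes without such a spot, the 72 were among them and the lowest SD was 0.35. Of these 100, replicate 4 was lowest in 91 and replicate 2 highest in 72, both probes departed in the same direction in 99, and replicate 1 was farthest in none. The area was drawn around spots of the 25 members with replicate 1 farthest, so none of those 25 could be among the 72, where the other patterns therefore take a larger share.

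The members came from 67 assembly blocks, at most 4 from any one, and 24 blocks had 2 or more. The eligible genes came from 323 blocks. How many shared blocks or near pairs other sets of eligible genes of this size hold was not computed. A single pair had consecutive gene numbers and 5 pairs lay 2 numbers apart. The consecutive pair had V of -0.76, -0.31, -0.12 and -1.16 in the one gene and -1.997, -0.95, -0.88 and -2.69 in the other, both in the order 4, 1, 2, 3. Of the pairs 2 apart, one was high on replicate 4 in both genes, at -2.24 against -3.19 to -2.75 and at -0.034 against -0.95 to -0.49. In another the genes differed. The one was lowest on replicate 4, at -0.84, whereas the other was lowest on replicate 1, at -0.70.

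Blocks of 5 or fewer genes on the array held 14 of the members (14%) and 5.15% of the eligible genes. Of these 14, 10 were lowest on replicate 4 and 2 had a spot in the replicate 1 area. The 2 probes of a gene overlapped by 10 or more nucleotides in 29% of the members and 20.1% of the eligible genes, so that the probes are not wholly separate readings there. The median GC content of the probes was 40% in both sets.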

How the data were processed

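The members and lists were chosen with earlier results of these data known. The authors deposited, per array, scanner tables of spot and local background intensity on a linear scale, read per the file headers with Agilent Feature Extraction 10.1.1.1. A second deposited file holds log2 values by gene and array. On replicates 1 to 4, 97.3%, 96.1%, 98.7% and 99.2% of these came out, to within 1e-06, as log2 of the Cy3/Cy5 ratio of unsubtracted median signals averaged over the gene's probes. The genes that did not match had an outlier spot on that array in 120 of 145, 31 of 211, 32 of 73 and 42 of 42 cases. The deposited values were not centred, their medians being -2.36, -2.25, -2.17 and -2.33. They served as an alternative only.

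Median signals minus the local background median gave V, as described above, in Python 3.11.15 with numpy 2.4.6 and pandas 2.3.3. The log2 ratio was averaged over the 2 probes, and no quantile normalization was applied. The study's methods, which name another version of the scanner software, describe quantile normalization as a further step. Spots set aside as outliers were kept. Control spots were left out. The precision is limited by the 4 arrays, and array intensities give no counting error. The labels place the 4 arrays on 1 slide. No test was run, since all samples formed 1 group and the values chose the members.

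Named genes were the 3 of largest SD, for each array the members farthest above and farthest below among those for which it was the farthest, and the genes on either side of the limit. Lists of yeast genes by function had been drawn up but could not be used, since the identifiers were not paired with gene names in the sources used here. The computation was tested on simulated data. Alternatives used processed, mean or unsubtracted signals, normexp correction with an offset of 50 and loess (limma 3.58.1, R 4.3.3), quantile normalization, Cy3 alone, the deposited table, other filters, 1 probe, and each array left out.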

Additional observations from a re-analysis of the deposited data

Results flagged for a closer look

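Of 21 values set against the other arrays, namely V of the named genes and summaries of each array, 6 had 1 array far from the other 3 by Dixon's criterion for 4 samples. Chance alone marks about 1 in 20 such groups, and the named genes were chosen for their spread. All 6 concerned replicate 1. V on replicate 1 was 2.73 in sbay_c676-g5.1, 3.99 in sbay_c665-g43.1 and 2.02 in sbay_c630-g46.1, far above the other arrays, and -0.24 in sbay_c594-g14.1, far below them. Replicate 1 also had 104 outlier spots among the spots of eligible genes, and 41 of them in the area of rows 171 to 191 and columns 3 to 16, where the other arrays had none. That area was drawn around spots of members that departed on replicate 1, so its count was not free of the choice. Over all members, 8 had 1 array this far from the others, each with replicate 1 farthest, and 5.06% of the eligible genes did.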

How the results depend on the processing

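The choice of members depended on how the dyes were normalized. With loess within arrays after normexp, 17 of the 100 remained among the 100 most variable genes and the median SD of V over the members was 0.14. With the scanner software's processed signals, which include a lowess step, 38 remained and the median SD was 0.21. Both settings also compressed levels across genes, the SD of mean V over the eligible genes being 1.25 in the main values, 0.95 with loess and 0.82 with processed signals. Pearson's r of mean V with the main values across these genes was 0.62 with loess and 0.82 with processed signals. The cause of the loss of spread was not tested. Under the other alternatives that used all arrays, 67 to 96 members remained, and the median SD was 0.43 to 0.56. Leaving out 1 array kept 58 (without replicate 4) to 87, with a median SD of 0.36 to 0.53. The members with replicate 1 farthest, 25 in the main values, were 14 when probes with an outlier spot were left out. They were 23 to 57 with 1 of the other arrays left out, the 57 being without replicate 4. Without the genes of the area the count was 0, both among the members left and among 100 chosen anew. The area was drawn around the spots of these 25, so the 0 among the members left was fixed in advance. Replicate 4 was lowest in 48 (loess) to 75 members under the alternatives over all 100 members and in 70 to 80 with 1 other array left out. Of the 100 members, 76 to 100 had the larger SD in Cy3 under the alternatives that changed the signal, background, spot summary, outlier spots or arrays used, and 68 to 99 had both probes departing in the same direction under these, the scalings and Cy3 alone. The counts by replicate 1 and replicate 4, the area and the choice by the smaller of the probe SDs were added after seeing the data. The SDs of the most variable genes were not stable. Without probes with an outlier spot, in the deposited table and without replicate 1, in that order, the SD was 0.16, 0.11 and 0.14 in sbay_c676-g5.1 (2.44 in the main values), 0.26, 0.20 and 0.25 in sbay_c665-g43.1 (1.38), and 0.076, 0.11 and 0.092 in sbay_c630-g46.1 (1.09). It was 0.027 in sbay_c594-g14.1 without replicate 1 (1.08), and in sbay_c650-g33.1 (0.73) it was 0.28, 0.22 and 0.24 without such probes, in the deposited table and without replicate 3. Nearly all genes with an outlier spot had a deposited value that differed from the plain 2-probe ratio. For such genes the deposited table and the leaving out of outlier probes are therefore not separate checks. Of 99 recomputed SDs of named genes with all arrays, 23 moved by more than their jackknife error. No paired analysis was possible because all samples formed 1 group.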
